A study of Mus musculus with 9 samples.

Results

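Described here are 10 genes of the Nodal branch of TGF-beta signalling, picked by gene name out of 54532 annotated genes in a count table of cultured mouse stem cells. They are the ligands Nodal and Gdf3, the co-receptor Tdgf1 (Cripto), the antagonists Lefty1, Lefty2, Cer1, Fst and Chrd, and the intracellular genes Skil and Pmepa1. RNA-seq was done on 9 libraries, 3 from each of 3 cell types of the strain Sv129 x GOF/GFP F1. ABSC, likened by the labels to trophoblast stem cells, were kept in Activin A with BMP4 and were at passage 25 to 30. ALSC were at passage 20 to 25, and their medium is read here as Activin A with LIF, a cytokine of naive embryonic stem cells; the protocol lists this recipe beside the short name of the ABSC medium. AFSC, likened to epiblast stem cells, were derived from blastocysts on fibronectin in Activin A and bFGF and were at passage 15 to 20. ABSC and ALSC both descend from AFSC that were moved to the other medium and passaged more than 5 times, so medium and passage cannot be told apart. Activin A was present in all 3 media, and no medium without it was compared.

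Nodal is a secreted ligand of the TGF-beta family that patterns the early embryo and helps hold the epiblast pluripotent. It binds activin receptors together with a membrane-bound co-receptor of the Cripto family, and the receptors phosphorylate Smad2 and Smad3, which act on DNA with partners such as Foxh1. Activin A uses the same type of receptors but needs no Cripto. Lefty1 and Lefty2 are secreted inhibitors that are themselves induced by the pathway, so that they form a negative feedback loop. Cer1, Fst and Chrd bind ligands outside the cell, Cer1 capturing Nodal and BMPs, Fst mainly activins and Chrd BMPs.

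The libraries held between 18978651 and 21578737 counts assigned to annotated genes. All 10 genes had enough counts to be tested, among 16178 genes tested in all. Levels are CPM, the counts of a gene relative to the total of its library, scaled with the TMM method; levels of different genes are compared only after division by gene length (CPM per kilobase). The words rose and fell are used where edgeR's quasi-likelihood test gave a Benjamini-Hochberg adjusted p under 0.05 over all genes tested. SE is the standard error of the log2 fold change. Libraries carry the numbers 1 to 3 in each cell type, with no statement of what a number stands for or whether the libraries came from separate cultures. P-values therefore measure only the spread between these libraries, which may be technical. Libraries numbered 1 deviated together from their group means, while numbers 2 and 3 were not told apart by their deviations. Values from a fit with the library number (1, 2 or 3) as a block are therefore given where they change a call. All 8 epiblast markers examined were detected in each cell type, with summed levels of 3187 to 3548 CPM in ABSC, 3217 to 3529 CPM in ALSC and 3804 to 3899 CPM in AFSC. Dnmt3b and Pou5f1 made up most of each sum, with means of 1612 and 1226 CPM in ABSC. The sums therefore say little of the other markers. Against AFSC, 2 of the 8 epiblast markers rose and 6 fell in ABSC, and 1 rose and 3 fell in ALSC. Of all genes tested, 7.98% were called in ABSC against AFSC and 7.04% in ALSC against AFSC. The widest change of these markers was that of Fgf5 in ABSC (log2 fold change -3.53, edgeR adjusted p = 1.25e-06). The 8 trophoblast stem cell markers summed to 404 to 481 CPM in ABSC, 162 to 297 CPM in ALSC and 191 to 259 CPM in AFSC. Of the 6 tested, 2 rose in ABSC against AFSC, Hand1 (9.75, edgeR adjusted p = 9.17e-09) and Cdx2 (5.04, edgeR adjusted p = 0.00839), and 2 rose in ALSC against AFSC, Hand1 (3.08) and Tfap2c (2.30). Hand1 was at 188 to 244 CPM in ABSC, against 0.155 to 0.376 CPM in AFSC, and Cdx2 at 0.835 to 6.43 CPM in ABSC, against 0 to 0.235 CPM in AFSC. Hand1 was the largest part of the ABSC sum, and Eomes, Tfap2c, Esrrb and Bmp4 were not called in ABSC against AFSC. Of 6 streak mesoderm markers 5 were tested there. Evx1 rose (5.41, edgeR adjusted p = 3.57e-05), Mixl1 fell (-1.33, edgeR adjusted p = 0.0119), and Kdr rose only under the block (edgeR adjusted p = 0.00196). In ALSC against AFSC, Fgf8 alone rose (1.40, edgeR adjusted p = 0.0128). Under the block Fgf8 did not pass there (edgeR adjusted p = 0.054), while Mixl1 and Kdr rose (0.0344 and 0.0332). The 6 streak markers summed to 39.6 to 89.6 CPM in ABSC, 71.9 to 95.7 CPM in ALSC and 31.2 to 36.7 CPM in AFSC. In ABSC Elf5 was at or below 0.0506 CPM, under the 0.147 to 0.157 CPM that 3 counts are worth. The part of these marker changes in the results on the 10 genes was not tested.

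The stretches before the transcription start are shown for the 4 genes with a RefSeq promoter entry, since Cer1 and Chrd fell in ABSC, Tdgf1 rose there, and Nodal is the ligand of the pathway. Each is the 250 bases upstream of the annotated start, 5′ to 3′ on the gene's own strand, from RefSeq on GRCm38.p6. Capitals mark the SMAD box CAGAC or the GC-rich SMAD element GGCGC, read on both strands.
Nodal (chr10:61417722-61417971, plus strand): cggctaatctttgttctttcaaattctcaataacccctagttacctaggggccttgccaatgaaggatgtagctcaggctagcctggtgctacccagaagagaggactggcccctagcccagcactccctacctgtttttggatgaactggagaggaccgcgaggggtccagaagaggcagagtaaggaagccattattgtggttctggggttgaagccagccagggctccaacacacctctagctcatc
Tdgf1 (chr9:110946159-110946408, minus strand): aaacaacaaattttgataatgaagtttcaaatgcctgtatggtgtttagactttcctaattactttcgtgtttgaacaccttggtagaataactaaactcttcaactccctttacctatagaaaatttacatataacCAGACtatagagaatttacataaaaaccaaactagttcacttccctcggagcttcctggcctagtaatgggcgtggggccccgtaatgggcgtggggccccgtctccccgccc
Cer1 (chr4:82885152-82885401, minus strand): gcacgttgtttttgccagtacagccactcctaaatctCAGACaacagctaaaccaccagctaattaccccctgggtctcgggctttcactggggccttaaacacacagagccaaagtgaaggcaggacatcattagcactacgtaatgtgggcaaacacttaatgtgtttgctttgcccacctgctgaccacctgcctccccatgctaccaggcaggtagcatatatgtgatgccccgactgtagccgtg
Chrd (chr16:20732877-20733126, plus strand): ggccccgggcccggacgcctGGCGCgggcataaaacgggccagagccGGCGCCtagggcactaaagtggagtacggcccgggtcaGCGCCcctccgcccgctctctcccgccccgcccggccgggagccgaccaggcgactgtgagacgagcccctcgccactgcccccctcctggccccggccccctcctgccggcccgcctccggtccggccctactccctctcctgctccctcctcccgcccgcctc

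The windows upstream of Tdgf1 and Cer1 each held 1 SMAD box, and that of Chrd held 4 GC-rich elements, 2 of them overlapping each other on opposite strands. Neither motif was found in the Nodal window. CAGAC or its reverse complement occurred in 42.2% of the 32851 promoters of that length, and GGCGC or its reverse complement in 32% of them, so a match is common. The forms AATCCACA and AATACACA of the Foxh1 element were in none of the 4 windows and in 0.718% and 0.895% of all promoters. G and C made up 78% of the Chrd window, 53.2% of the Nodal window, 51.6% of the Cer1 window and 42% of the Tdgf1 window. Lefty1, Lefty2, Gdf3, Fst, Skil and Pmepa1 had no entry.

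In ABSC against AFSC, 2 of the 10 genes rose and 4 fell, where 7.98% of all genes tested were called (3.98% as higher). Gdf3 and Tdgf1 rose, while Lefty1, Lefty2, Cer1 and Chrd fell. In ALSC against the same AFSC libraries, 3 rose (Gdf3, Tdgf1 and Lefty2) and Skil fell, with 7.04% of all genes called, 3.54% higher and 3.50% lower. In ABSC against ALSC, 4 fell (Lefty1, Lefty2, Cer1 and Chrd) and 0 rose, with 11.0% of all genes called, 5.41% higher and 5.56% lower. Unadjusted p-values of edgeR were under 0.05 for 6 genes there, and DESeq2 called 1 higher, Skil, and 4 lower. In the fit with the library number as a block, 2 rose and 6 fell in ABSC against AFSC, where that fit called 19.4% of all genes, 9.58% higher and 9.78% lower. It gave 5 that rose and 1 that fell in ALSC against AFSC (22.2% of all genes called, 11.1% in each direction), and 1 that rose and 7 that fell in ABSC against ALSC (28.5%, 14.2% higher and 14.3% lower). The libraries of both cell types did not overlap for 6, 5 and 6 of the 10 genes in the 3 comparisons, against 27.4%, 28.5% and 28.9% of all genes. The median log2 change of the 10 genes was -0.49, 0.70 and -0.62, beside 0.00, 0.00 and -0.01 over all genes tested. The comparisons of ABSC and of ALSC with AFSC share their AFSC libraries.

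**Figure D1:**
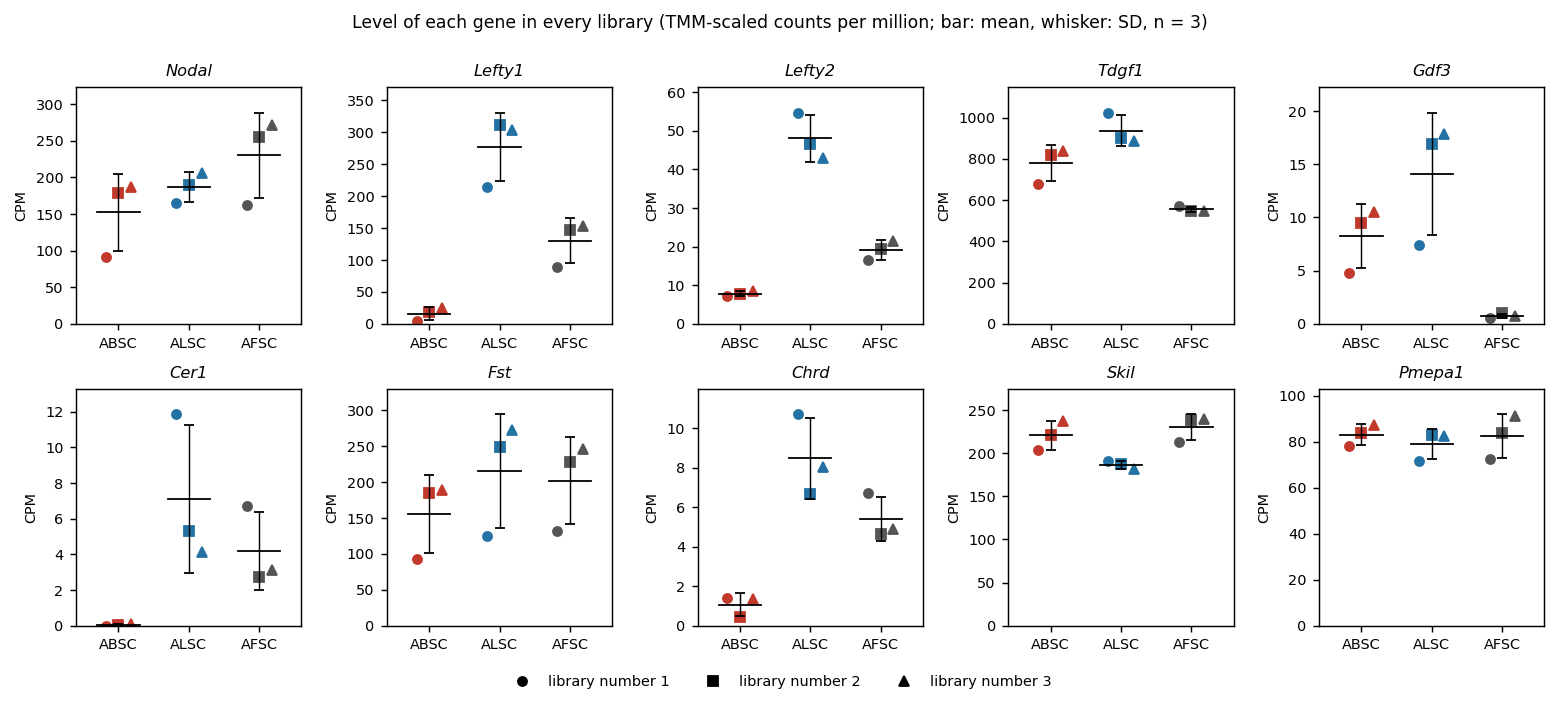
Level of each of the 10 genes in every library, in TMM-scaled CPM on linear axes from 0. Points are libraries, shaped by library number, bars are means and whiskers SDs (n = 3); Lefty1, Lefty2, Cer1 and Chrd lie lowest in ABSC, and Gdf3 lies lowest in AFSC.

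Of the ligands, Nodal (ENSMUSG00000037171, chromosome 10, 61417972 to 61425338) was abundant in every library. It stood at 91.6, 179 and 187 CPM in ABSC libraries 1 to 3, at 165, 190.0 and 206 CPM in ALSC and at 163, 255 and 271 CPM in AFSC. Library 1 was the lowest in each cell type, and the ranges of the cell types overlapped. Means were 152 ± 52.7 CPM in ABSC, 187 ± 20.9 CPM in ALSC and 230 ± 58.5 CPM in AFSC (SD, n = 3 each), and no pair of neighbours in that order differed beyond its spread. Nodal did not pass in ABSC against AFSC (log2 fold change -0.59, SE 0.26, 95% interval -1.18 to -0.01, edgeR adjusted p = 0.24). It fell in the fit with the block (-0.62, edgeR adjusted p = 0.0371), and the difference within numbers 1, 2 and 3 was -0.83, -0.52 and -0.54. ALSC against AFSC gave -0.30 (95% interval -0.88 to 0.29, edgeR adjusted p = 0.577), and ABSC against ALSC -0.30 (-0.88 to 0.29, edgeR adjusted p = 0.53).

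Gdf3 (ENSMUSG00000030117, chromosome 6, 122605403 to 122610087), a Nodal-related ligand of pluripotent cells that can also inhibit BMP, was low in AFSC and clearly expressed in both derived cell types. Its levels were 4.81, 9.47 and 10.5 CPM in ABSC, 7.44, 16.9 and 17.9 CPM in ALSC and 0.567, 0.992 and 0.705 CPM in AFSC. Raw counts were 98 to 207, 162 to 351 and 11 to 21 in the same order. Every derived library was above every AFSC library, while ABSC and ALSC overlapped. Gdf3 rose in ABSC (log2 fold change 3.43 against AFSC, SE 0.45, edgeR adjusted p = 0.00134) and in ALSC (4.20, SE 0.45, edgeR adjusted p = 0.000845). Between ABSC and ALSC it was at -0.77 (SE 0.36, edgeR adjusted p = 0.208). There it fell with the library number as a block (edgeR adjusted p = 0.000783) and without ALSC 1 (-1.07, edgeR adjusted p = 0.0473), and the difference within numbers was -0.63, -0.84 and -0.77.

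Tdgf1 (ENSMUSG00000032494, chromosome 9, 110939603 to 110946158), the co-receptor through which Nodal reaches activin receptors, was the most abundant of the 10 genes in each cell type. Per length it stood at 297 ± 32.9 CPM per kilobase in ABSC, 358 ± 28.9 in ALSC and 212 ± 5.05 in AFSC. In CPM it was at 680.2, 821 and 837 in ABSC, 1024, 902 and 886 in ALSC and 571, 549 and 547 in AFSC. The 3 cell types did not overlap, with ALSC highest and AFSC lowest. Tdgf1 rose by 0.49 on the log2 scale in ABSC against AFSC (SE 0.08, edgeR adjusted p = 0.00593) and in ALSC against AFSC (0.75, SE 0.08, edgeR adjusted p = 0.000996). Between ABSC and ALSC it did not pass (-0.27, SE 0.08, edgeR adjusted p = 0.0699), but fell with the library number as a block (edgeR adjusted p = 0.0388). It also fell there with library size as the only scaling (-0.34, edgeR adjusted p = 0.0316) and without a filter on low counts (edgeR adjusted p = 0.0304). The difference within number 1 was -0.59, against -0.14 and -0.08 within numbers 2 and 3. Of the 150-base windows of its transcripts, 0.181% also occurred in its pseudogene Tdgf1-ps1, so few reads of that length could have been shared.

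The feedback antagonists Lefty1 and Lefty2 were lowest in ABSC and highest in ALSC. Lefty1 (ENSMUSG00000038793, chromosome 1, 180935022 to 180938400) stood at 5.21, 18.6 and 24.4 CPM in ABSC, at 215, 312 and 304 CPM in ALSC and at 89.2, 148 and 154 CPM in AFSC. No library of one cell type reached the range of another. In ABSC the log2 fold change of Lefty1 against AFSC was -3.02, a fall (SE 0.45, edgeR adjusted p = 0.00366), and against ALSC it was -4.11 (SE 0.47, edgeR adjusted p = 0.000793). In ALSC against AFSC it stood at 1.09 (SE 0.41, 95% interval 0.17 to 2.00) and did not pass (edgeR adjusted p = 0.155; 0.055 with the library number as a block). That comparison passed without ABSC 1 (1.09, edgeR adjusted p = 0.0203) and in a fit of those 6 libraries alone (1.08, edgeR adjusted p = 0.025). ABSC 1 was 2.05 log2 units below the mean of ABSC 2 and ABSC 3, and it entered the shared estimate of spread.

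Lefty2 (ENSMUSG00000066652, chromosome 1, 180893108 to 180899103), whose gene body lies 35.9 kb from that of Lefty1, varied less within each cell type. Its levels were 7.17, 7.84 and 8.45 CPM in ABSC, 54.7, 46.6 and 42.8 CPM in ALSC and 16.4, 19.5 and 21.4 CPM in AFSC. The 3 cell types again stood apart from each other, in the same order as for Lefty1. Lefty2 fell in ABSC, at a log2 fold change of -1.29 against AFSC (SE 0.14, edgeR adjusted p = 0.000373), and rose in ALSC against AFSC (1.33, SE 0.13, edgeR adjusted p = 0.000481). The direct difference between ABSC and ALSC was -2.62 (SE 0.14, edgeR adjusted p = 4.71e-06), and it held under all 19 alternative settings. Lefty1 and Lefty2 are close paralogs, and how the authors treated reads matching both is not given in the sources used here. Exact sharing was small: 12 windows of 150 bases, which is 0.747% of those of Lefty1 and 0.488% of those of Lefty2, occurred in both.

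Per length, Lefty1 exceeded Lefty2 in every library, by 1.08, 3.52 and 4.29 times in ABSC, 5.83, 9.94 and 10.5 times in ALSC and 8.06, 11.2 and 10.7 times in AFSC. ABSC thus had the lowest Lefty1 share, and ALSC and AFSC overlapped. The summed Lefty RNA, per length, was 0.131, 0.159 and 0.192 of the Nodal RNA in ABSC, 1.82, 2.15 and 1.92 times the Nodal RNA in ALSC, and 0.733, 0.750 and 0.738 of it in AFSC. This ratio separated the cell types while Nodal itself overlapped between them, and AFSC 1 kept the ratio of AFSC 2 and AFSC 3 although both its Nodal and its Lefty RNA were lower. With 3 libraries against 3, an exact permutation test cannot give a two-sided p below 0.1, so the ratio is given as a description.

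**Figure D2:**
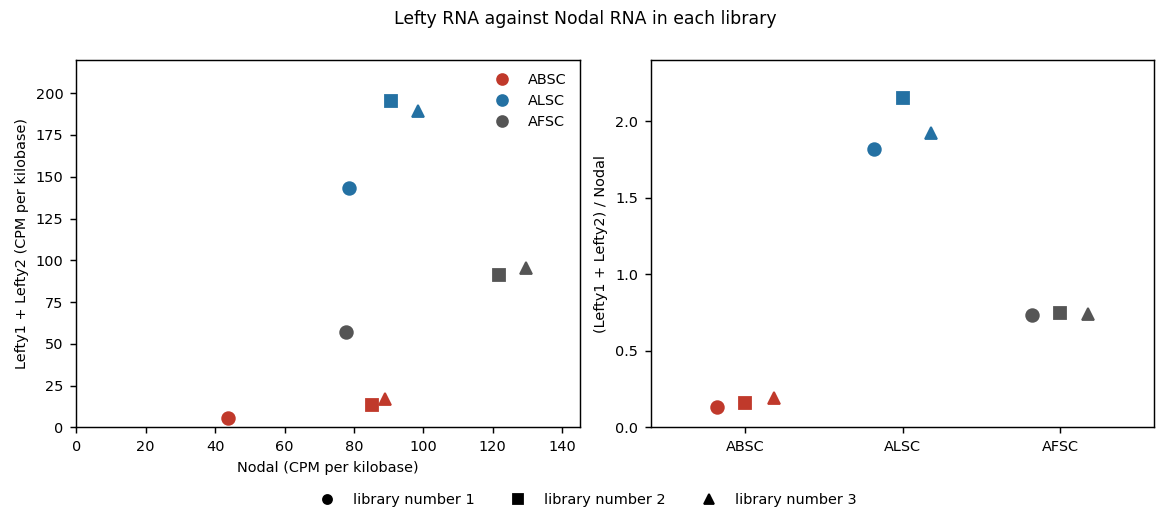
Summed Lefty1 and Lefty2 RNA against Nodal RNA in each library, both in CPM per kilobase (left), and their ratio by cell type (right). Points are libraries, coloured by cell type and shaped by library number; the ratio is 0.131 to 0.192 in ABSC, 1.82 to 2.15 in ALSC and 0.733 to 0.750 in AFSC.

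Of the other secreted antagonists, Cer1 (ENSMUSG00000038192, chromosome 4, 82881751 to 82885148), an inhibitor made by anterior visceral and definitive endoderm, was nearly absent from ABSC. Raw counts were 0, 1 and 2 in ABSC, 258, 102 and 81 in ALSC and 130, 58 and 67 in AFSC. In CPM these were 0, 0.0523 and 0.101 in ABSC, 11.9, 5.33 and 4.13 in ALSC and 6.70, 2.74 and 3.15 in AFSC. Every ABSC library was below every other library, and library 1 was the highest in ALSC and in AFSC. Pooled over libraries, the ABSC level was 0.0123 of the AFSC level (exact 95% counting interval 0.00252 to 0.0363) and 0.00695 of the ALSC level (0.00143 to 0.0205), intervals that cover counting error only. Cer1 fell in ABSC against AFSC (edgeR adjusted p = 0.00136) and against ALSC (edgeR adjusted p = 0.000533). ALSC against AFSC gave a log2 fold change of 0.77 (SE 0.45, edgeR adjusted p = 0.374), which rose with the library number as a block (edgeR adjusted p = 0.021) and was 0.82, 0.96 and 0.39 within the numbers.

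Some endoderm markers were also lowest in ABSC. The summed level of 9 such markers was 8.40 to 11.2 CPM in ABSC, 31.0 to 39.2 CPM in ALSC and 25.8 to 32.8 CPM in AFSC. Of the 5 tested, 2 fell in ABSC against AFSC (Foxa2 at -5.64 and Sox17 at -3.82), 4 fell in ABSC against ALSC, and 0 were called in ALSC against AFSC (1 at an unadjusted edgeR p under 0.05, 0 by DESeq2). The shares of all genes called were 7.98%, 11.0% and 7.04% in that order. Under the block Gata6 also fell in ABSC against AFSC (edgeR adjusted p = 0.00161), and Gata4 and Gata6 rose in ALSC against AFSC (0.0375 and 0.0156). Hhex, at 6.93 to 9.19 CPM the largest part of the ABSC sum, was at -0.05 in ABSC against AFSC (edgeR adjusted p = 0.929) and -0.09 in ABSC against ALSC (0.756). The remaining markers were too low to be tested. Ttr was at 0 in all libraries, and Afp had 3 counts in ABSC and 0 in ALSC and AFSC. Sox7 was highest in ABSC, with 37 counts there, 18 in ALSC and 17 in AFSC, while Apoa1 had 2, 5 and 11 in that order. The part of the endoderm markers in the Cer1 result was not tested. In bulk RNA, fewer cells of a type and less RNA per cell cannot be told apart.

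Chrd (ENSMUSG00000006958, chromosome 16, 20733127 to 20742384), a BMP antagonist of the node and its derivatives, was low throughout. It stood at 1.42, 0.418 and 1.37 CPM in ABSC, 10.7, 6.68 and 8.05 CPM in ALSC and 6.70, 4.63 and 4.89 CPM in AFSC. All ABSC libraries were below all others, whereas ALSC 2 lay just below AFSC 1, so that those ranges overlapped. In ABSC Chrd fell, at -2.32 on the log2 scale against AFSC (SE 0.37, edgeR adjusted p = 0.00401) and against ALSC (-2.97, SE 0.37, edgeR adjusted p = 0.000899). ALSC against AFSC gave 0.65 (SE 0.32, edgeR adjusted p = 0.277), which rose with the library number as a block (edgeR adjusted p = 0.0216) and was 0.68, 0.53 and 0.72 within the numbers. Chrd overlaps Thpo on the opposite strand, with 12 to 105 counts a library for Thpo, and the library kit does not mark strand, so reads in the overlap cannot be assigned with certainty.

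Fst (ENSMUSG00000021765, chromosome 13, 114452290 to 114458951), the activin-binding protein follistatin, was abundant and split by library number rather than by cell type. It stood at 93.3, 184 and 189 CPM in ABSC, 125, 249 and 273 CPM in ALSC and 132, 228 and 246 CPM in AFSC. Library 1 was far below the other libraries of its cell type each time, and the cell types overlapped. Fst was not called in ABSC against AFSC (log2 fold change -0.38, SE 0.36, 95% interval -1.18 to 0.43, edgeR adjusted p = 0.654) or in ABSC against ALSC (-0.47, -1.28 to 0.34, edgeR adjusted p = 0.457). Both differences were falls in the fit with the block (-0.40, edgeR adjusted p = 9.38e-05, and -0.46, edgeR adjusted p = 1.9e-05). Within numbers 1, 2 and 3 the difference was -0.51, -0.31 and -0.38 in ABSC against AFSC and -0.42, -0.43 and -0.53 in ABSC against ALSC. ALSC against AFSC gave 0.09 (95% interval -0.71 to 0.89, edgeR adjusted p = 0.921).

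The intracellular genes Skil and Pmepa1 are induced by Smad2 and Smad3 and restrain them, Skil as a co-repressor (SnoN) and Pmepa1 by sequestering receptor-activated Smads. Skil (ENSMUSG00000027660, chromosome 3, 31095058 to 31122577) stood at 203, 221 and 238 CPM in ABSC, 191, 187 and 182 CPM in ALSC and 213, 238 and 240 CPM in AFSC. All ALSC libraries were below all others, by a small margin, and ABSC and AFSC overlapped. In ALSC against AFSC the fall of Skil was small, at -0.30 on the log2 scale (SE 0.07, edgeR adjusted p = 0.0306). That call was lost without ABSC 2 (edgeR adjusted p = 0.0542), ALSC 2 (0.083), ALSC 3 (0.103), AFSC 2 (0.131) or AFSC 3 (0.135). ABSC against ALSC gave 0.24 (SE 0.07, edgeR adjusted p = 0.0552), which rose with the library number as a block (edgeR adjusted p = 0.00575). It also rose without ABSC 1 (0.30, edgeR adjusted p = 0.021), without AFSC 1 (0.25, edgeR adjusted p = 0.0468), without a filter on low counts (0.25, edgeR adjusted p = 0.0435) and by DESeq2 (0.25, adjusted p = 0.0287). In ABSC against AFSC it was at -0.06 (95% interval -0.22 to 0.09, edgeR adjusted p = 0.719).

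Pmepa1 (ENSMUSG00000038400, chromosome 2, 173224458 to 173276533) was at 78.1, 83.7 and 87.1 CPM in ABSC, 71.5, 83.2 and 82.7 CPM in ALSC and 72.4, 83.8 and 91.2 CPM in AFSC. The ranges overlapped throughout. Its log2 fold change was 0.01 in ABSC against AFSC (95% interval -0.20 to 0.22), -0.06 in ALSC against AFSC (-0.27 to 0.15) and 0.07 in ABSC against ALSC (-0.14 to 0.28). The edgeR adjusted p was 0.979, 0.785 and 0.706 in that order. In ABSC against AFSC the 95% intervals of Skil and Pmepa1 reached no further than -0.22 and 0.22. Whether Smad2 and Smad3 activity differed between the cell types was not tested.

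**Figure D3:**
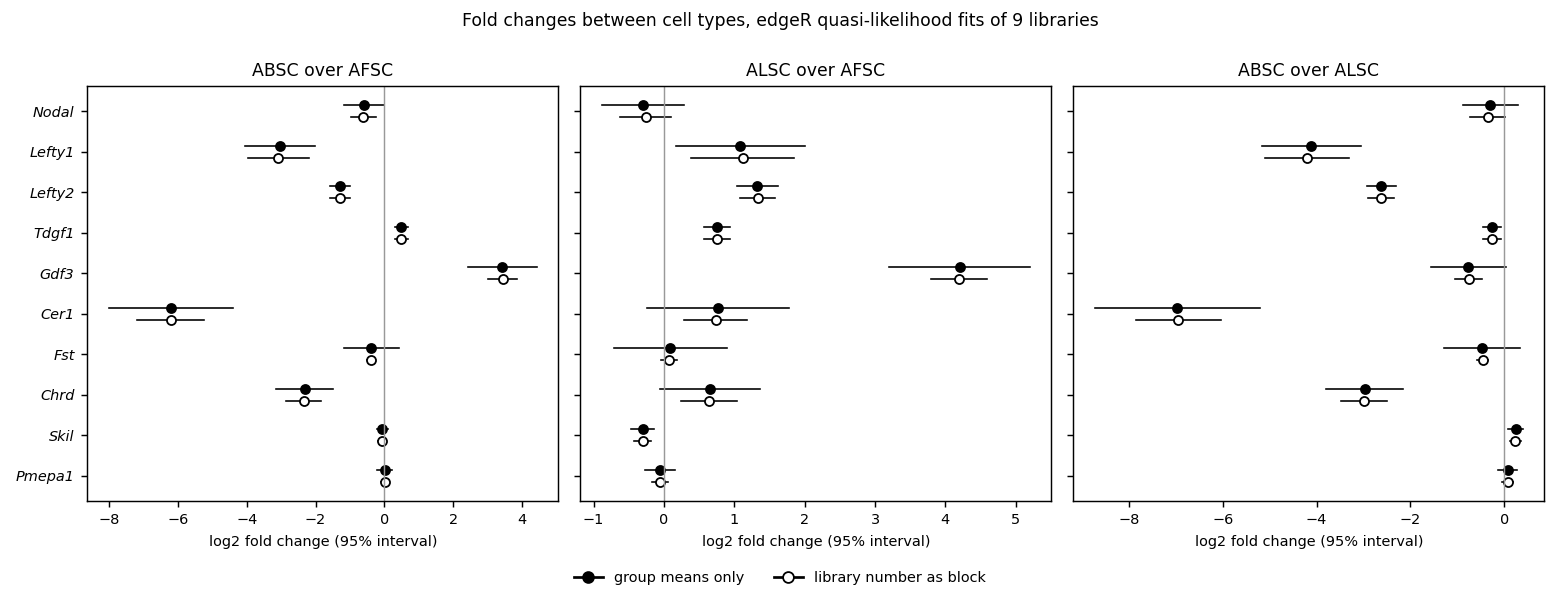
Log2 fold changes of the 10 genes in the 3 comparisons, with 95% intervals from edgeR's quasi-likelihood fits of 9 libraries. Filled points are the fit with group means only and open points the fit with the library number as a block. The open intervals are much narrower for Fst and Gdf3, and less so for Nodal, Cer1 and Pmepa1, while the estimates stay close.

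Other genes of the pathway were read from lists by role. Of all genes tested, 7.98% were called in ABSC against AFSC, 7.04% in ALSC against AFSC and 11.0% in ABSC against ALSC. Under the block these shares were 19.4%, 22.2% and 28.5%. Of 5 receptor and co-receptor genes, 4 were tested (Acvr1b, Acvr2a, Acvr2b and the Cripto relative Cfc1), and 0 were called in the 3 comparisons by DESeq2 or by edgeR without the block; under the block Acvr1b, a type I activin receptor gene, fell in ABSC against ALSC (-0.20, edgeR adjusted p = 0.032). At unadjusted edgeR p under 0.05 there were 0 in ABSC against AFSC, 0 in ALSC against AFSC and 1 in ABSC against ALSC. Of 5 transducers, all tested, 0 were called in ABSC against AFSC (2 at unadjusted edgeR p under 0.05, 0 by DESeq2) and in ALSC against AFSC (0 and 0). Under the block 2 transducers rose and 1 fell in ABSC against AFSC. In ABSC against ALSC, 1 transducer rose, Foxh1, the DNA-binding partner of Smad2 and Smad3, at 113 CPM in ABSC and 92.4 CPM in ALSC (log2 fold change 0.29, edgeR adjusted p = 0.0353). Under the block Smad2 rose there as well (0.30, edgeR adjusted p = 0.00161). Of the 7 ligand and processing genes, 4 were tested. In ABSC against AFSC 1 of them rose, Furin, a protease that can cleave the Nodal precursor, averaging 42.5 CPM over the ABSC and 25.7 CPM over the AFSC libraries (0.73, edgeR adjusted p = 0.0176), and 3 rose with the library number as a block. In ABSC against ALSC 3 rose: the activin subunit gene Inhba (1.85), the protease gene Pcsk6 (0.68) and Furin (0.62). In ALSC against AFSC 0 of these 4 were called (0 at unadjusted edgeR p under 0.05, 0 by DESeq2). When single libraries were left out, the Inhba call held each time. Furin was lost in ABSC against AFSC without AFSC 2 or AFSC 3 (largest edgeR adjusted p = 0.0832) and in ABSC against ALSC without ABSC 2, ALSC 2 or ALSC 3 (0.0938). Pcsk6 was lost without ABSC 2 or ABSC 3 (0.0845), and Foxh1 without any of 6 libraries (ABSC 2, ABSC 3, ALSC 1, ALSC 3, AFSC 2 or AFSC 3; up to 0.144).

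Intracellular inhibitors other than Skil and Pmepa1 were read in the same way, beside 7.98%, 7.04% and 11.0% of all genes called. Of 8 tested, 1 rose in ABSC against AFSC, the pseudoreceptor gene Bambi (log2 fold change 0.54, edgeR adjusted p = 0.0358), and 1 fell in ALSC against AFSC, the Smad phosphatase gene Ppm1a (-0.34, edgeR adjusted p = 0.00783). Under the block 2 rose and 1 fell in ABSC against AFSC, and 1 rose and 3 fell in ALSC against AFSC. In ABSC against ALSC 2 rose and 0 fell, Smad7 (0.90, edgeR adjusted p = 0.0236) and Ppm1a (0.22, edgeR adjusted p = 0.0359), and under the block Tgif1, a Smad co-repressor gene, rose as well (0.32, edgeR adjusted p = 0.00728). Smad7, an inhibitor induced by both Activin and BMP signals, stood at 115, 139 and 132 CPM in ABSC and 48.8, 78.8 and 79.0 CPM in ALSC. Of 10 further secreted antagonists 6 were tested. In ABSC against AFSC the follistatin-like gene Fstl1 rose (0.50) and Tsku, a ligand-binding proteoglycan gene, fell (-0.59), while in ALSC against AFSC Tsku fell (-0.44) and 0 rose (4 of the 6 had an unadjusted edgeR p under 0.05, and DESeq2 called 1 higher). In ABSC against ALSC the BMP-binding protein gene Bmper, named after its values were seen, rose (2.80, at 0.589 to 0.889 CPM in ABSC) and Twsg1, a modulator of Chrd, fell (-0.28). Under the block 2 rose and 1 fell both in ALSC against AFSC and in ABSC against ALSC. The call of Fstl1 and that of Tsku in ABSC against AFSC held without each single library. Smad7 was lost without ABSC 2 or ABSC 3 (largest edgeR adjusted p = 0.0828), and Ppm1a in ALSC against AFSC without AFSC 3 (0.051). Bambi, Twsg1, Tsku in ALSC against AFSC and Ppm1a in ABSC against ALSC were each lost without any of 6 libraries, at an edgeR adjusted p of up to 0.158, 0.149, 0.108 and 0.119.

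Transcription factor genes that act downstream of Nodal in the streak and node were mostly lower in ABSC. Of 9 tested, 1 rose and 5 fell in ABSC against AFSC, 2 rose and 0 fell in ALSC against AFSC, and 0 rose and 6 fell in ABSC against ALSC. Under the block these became 1 and 5, 5 and 0, and 0 and 7. Gsc, a homeobox gene of the organizer, was at 0.845 CPM in ABSC, 17.9 CPM in ALSC and 8.83 CPM in AFSC. It fell in ABSC against AFSC (log2 fold change -3.38, edgeR adjusted p = 4.95e-05) and rose in ALSC against AFSC (1.02, edgeR adjusted p = 0.0167). Foxa2 and Lhx1, factors of anterior streak and endoderm, fell in ABSC against AFSC (-5.64 and -4.84) and against ALSC (-5.79 each). Nanog, a pluripotency factor, rose in ALSC against AFSC (0.84, edgeR adjusted p = 0.000881). The call of Gsc in ALSC against AFSC was lost without ALSC 3, AFSC 1, AFSC 2 or AFSC 3 (largest edgeR adjusted p = 0.0758), while Gsc, Foxa2 and Lhx1 in ABSC held without each single library. The medians of this list were -0.34, 0.17 and -0.47 in the 3 comparisons, beside 0.00, 0.00 and -0.01 over all genes. Nanog and Otx2 of this list also stand among the epiblast markers, Foxa2 and Hhex among the endoderm markers, and Eomes among the trophoblast markers.

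The genes with profiles closest to the members were found by the root mean square difference of centred log2 CPM over the 9 libraries. Closest to Lefty1 were Gsc (0.48), Dkk1 (0.54), which encodes a secreted WNT inhibitor, and Gm40709 (0.54), where the profile of Lefty1 itself spread by 1.94 about its mean. Closest to Lefty2, with a spread of 1.07, were Lzts1 (0.25), Slc6a13 (0.26) and Mfap4 (0.27). For Gdf3, with a spread of 1.79, the nearest were the calgranulin genes S100a8 (0.45) and S100a9 (0.59), both below 1 CPM in every cell type mean, and As3mt (0.70). Nodal, with a spread of 0.43, was nearest to Syne1 (0.13), Lcmt2 (0.14) and BC002059 (0.16). These distances also carry the shared library numbers and are given without a test.

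Gdf3 lies in a cluster of pluripotency genes on chromosome 6, and 3 of its 4 tested neighbours within 100 kb (Apobec1, Dppa3 and Nanog) changed too. Of the 4, 3 rose in ABSC against AFSC, 3 rose in ALSC against AFSC, and 1 rose and 2 fell in ABSC against ALSC. The shares of all genes called were 7.98%, 7.04% and 11.0% in that order. Apobec1, an RNA-editing enzyme gene whose body ends 2.96 kb from that of Gdf3, stood at 8.25, 7.74 and 7.69 CPM in ABSC, 10.9, 11.1 and 11.9 CPM in ALSC and 3.61, 3.31 and 3.52 CPM in AFSC. Its log2 fold change was 1.18 in ABSC against AFSC (edgeR adjusted p = 0.000479) and 1.70 in ALSC against AFSC (edgeR adjusted p = 0.00011). Dppa3, a gene of germ cells and naive pluripotency 16.3 kb from Gdf3, had 112 counts in ABSC, 47 in ALSC and 0 in AFSC. Against a floor of 3 counts over the AFSC group it was at least 39.0-fold higher in ABSC and at least 16.0-fold higher in ALSC. Nanog, 97.4 kb away, stood at 157, 185 and 199 CPM in ABSC, 268, 230 and 253 CPM in ALSC and 146, 133 and 140 CPM in AFSC. It rose in ABSC against AFSC (0.37, edgeR adjusted p = 0.0333) as it did in ALSC. That smaller call was lost without any of 6 libraries (ABSC 2, ABSC 3, ALSC 3, AFSC 1, AFSC 2 or AFSC 3; edgeR adjusted p up to 0.141). The neighbours called against AFSC other than Nanog in ABSC held without each single library. In ABSC against ALSC, Dppa3 was lost without any of 8 libraries (up to 0.158) and Apobec1 without any of 4 (up to 0.106), while Nanog held. The processed pseudogene Gm10420 was not called in any of the 3 comparisons.

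**Figure D4:**
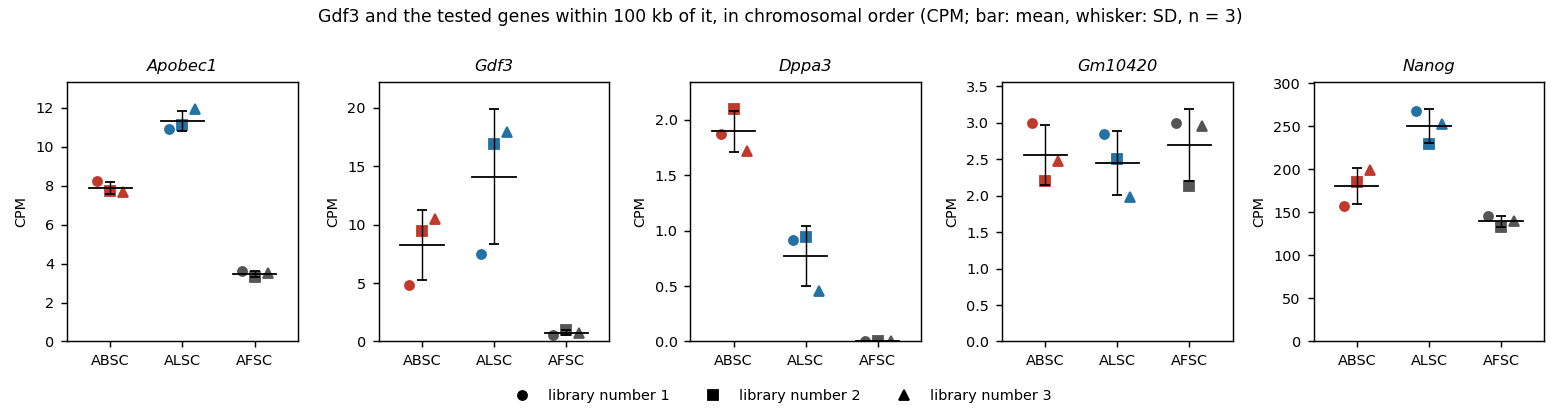
Levels of Gdf3 and the tested genes within 100 kb of it, in chromosomal order and in CPM on linear axes from 0. Points are libraries shaped by library number, bars are means and whiskers SDs (n = 3); Apobec1, Gdf3, Dppa3 and Nanog lie lowest in AFSC, and Gm10420 overlaps between cell types.

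Library number touched the members unevenly. In the block fit, with number 1 set against the mean of numbers 2 and 3, 4 of the 10 genes were lower in number 1 and 2 were higher, where 34.7% of all genes were called. Fst (log2 difference -0.96, edgeR adjusted p = 9.31e-09), Gdf3 (-1.09, edgeR adjusted p = 5.58e-05), Nodal (-0.64, edgeR adjusted p = 0.0141) and Pmepa1 (-0.20, edgeR adjusted p = 0.00407) were lower, and Cer1 (1.21, edgeR adjusted p = 0.000474) and Chrd (0.55, edgeR adjusted p = 0.0239) were higher. Lefty1 was at -0.85 and did not pass (edgeR adjusted p = 0.0731). Lefty2 (-0.02) and Tdgf1 (-0.00) had the smallest such differences. When library 2 of every cell type was left out, with 2 libraries left in each, 0 of the 10 genes were called in ABSC against AFSC and in ALSC against AFSC. Without library 3 of every cell type 2 and 1 were called. Without library 1, 8 were called in each of these comparisons. The calls over all genes moved the same way, from 96 and 16 genes without library 2 to 4622 and 4122 without library 1.

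**Figure D5:**
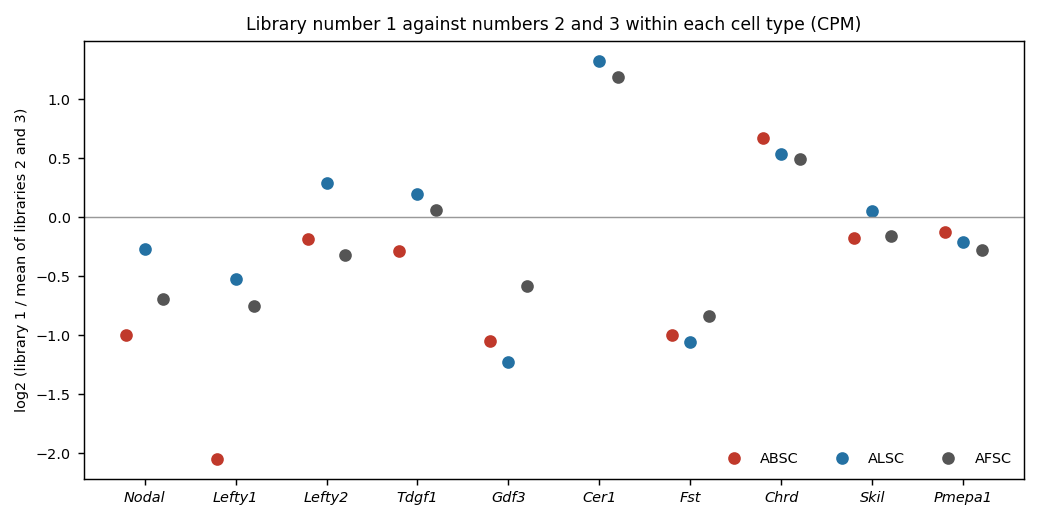
Log2 ratio of library 1 to the mean of libraries 2 and 3 within each cell type, from CPM, for the 10 genes. Each point is 1 cell type. Nodal, Lefty1, Gdf3, Fst and Pmepa1 lie below 0 and Chrd above 0 in all 3, and Cer1 has no ABSC point because ABSC 1 had 0 counts.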

How the data were processed

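Each library is a separate RNA-seq library of cultured mouse cells, and the deposited table holds whole-number read counts per gene made by the authors. Alignment used HISAT2 2.0.5 and gene counting featureCounts 1.5.0-p3, per the submitters' processing notes, which give mm9 as the build; but the deposited coordinates of all 10 genes are those of GRCm38, and coordinates are printed as deposited. Of 54878 rows, 346 had no Ensembl ID (0.208% to 0.227% of counts) and were left out.

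The counts of the 9 libraries were fitted together with edgeR 4.0.16 in R 4.3.3 (quasi-likelihood, robust, TMM factors 0.963 to 1.06, 6 residual degrees of freedom). Low genes were removed with filterByExpr (minimum count 10, minimum total 15). P-values were adjusted over all 16178 genes, and DESeq2 1.42.0 was an alternative. The floor of 3 counts is worth 0.138 to 0.157 CPM per library. Promoter sequences came from RefSeq, and 4 of 10 genes matched by symbol. Same-numbered libraries of different cell types correlated at 0.197 to 0.554 in their deviations from the group means (9 pairs), and differently numbered ones at -0.426 to 0.273 (18 pairs). Among numbers 2 and 3 alone, same-numbered pairs were at 0.197 to 0.356 and differently numbered ones at 0.221 to 0.273. The data thus set number 1 apart but do not show that 2 pairs with 2 or 3 with 3, and the labels only repeat the numbers. The contrast of library number 1 was not among the planned comparisons. The fit was tested on simulated data, which held no effect of library number, so that test does not cover such an effect.

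The members, lists and neighbours were chosen with earlier results of these data known. Named pathway genes are up to 3 called genes per list and comparison, at 1 CPM or more, with the largest change. Some planned neighbour results are not reported here.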

Additional observations from a re-analysis of the deposited data

How the results depend on the processing

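Over the 19 alternatives, 9 member values changed sign, none of them called. Pmepa1 in ABSC against AFSC became -0.0141 with library size as the only scaling and -0.0294 without library 1 of every cell type, and ranged from -0.0739 to 0.0912 when single libraries were left out. In ALSC against AFSC, Pmepa1 then ranged from -0.15 to 0.0145 and Fst from -0.143 to 0.364.

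The replicate block raised the genes called to 3132 in ABSC against AFSC, 3590 in ALSC against AFSC and 4605 in ABSC against ALSC, from 1291, 1139 and 1775, and the members called in ABSC against ALSC to 8 (4 without the block). A fit of ABSC and ALSC alone called 1041 genes. Leaving out single libraries gave 667 to 1723 genes in ABSC against AFSC (lowest without AFSC 3; 686 without AFSC 2, 685 without ABSC 2, 746 without ABSC 3). It gave 345 to 1522 in ALSC against AFSC (345 without AFSC 3, 349 without AFSC 2, 559 without ALSC 3, 642 without ALSC 2) and 846 to 2337 in ABSC against ALSC (846 without ABSC 2, 958 without ABSC 3). Members called ranged from 6 to 6, 3 to 5 and 4 to 5. DESeq2 called 1737, 1706 and 2347 genes, and 6, 4 and 5 members.

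Without library 1 of every cell type, 4622, 4122 and 5225 genes and 8, 8 and 7 members were called in the order above. Without library 2 these were 96, 16 and 159 genes and 0, 0 and 4 members, and without library 3 they were 130, 30 and 175 genes and 2, 1 and 3 members. These fits have 2 libraries per cell type, and the cause of the gap between them was not tested. The log2 fold changes of called members kept their sign throughout, for example -3.45 to -2.59 for Lefty1 and 3.17 to 3.71 for Gdf3 in ABSC against AFSC. Depth limits Cer1 and Chrd in ABSC and Gdf3 in AFSC, where counts were lowest (3, 64 and 47 over the libraries of the cell type). Of 29 calls of named pathway genes and neighbours of Gdf3, 15 held without each single library and 14 were lost without at least 1, with 0 changes of sign.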
